A study of Mus musculus with 22 samples.

Results

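Interferon-stimulated genes are the targets that cells switch on when interferon reaches their surface. A list of 35 of them was followed in mouse lung: the regulators Stat2, Irf7, Irf9 and Usp18, the sensors Ddx58, Ifih1 and Zbp1, 18 effectors of the type I response, 8 interferon-inducible GTPases and the chemokines Cxcl9 and Cxcl10. The members were chosen by name, with earlier results of these data known, and all 35 were found among the 20938 genes of the table. Lung RNA came from BALB/c mice (also spelled BABL/c in the labels), sensitized by intraperitoneal injection on day 49 of life, given a booster on day 63 and exposed to aerosol from day 70. Short OVA mice (4 libraries) inhaled ovalbumin, an egg-white allergen, on 3 consecutive days. Short MCh mice (4 libraries) inhaled methacholine, a muscarinic agonist that narrows the airways, and short PBS mice (3 libraries) phosphate-buffered saline, in the same way. Long OVA (4 libraries), long MCh (4 libraries) and long PBS mice (3 libraries) had these aerosols 3 times a week for 4 weeks. By the treatment text all groups, PBS included, were sensitized, with an agent that it does not name, although the titles call PBS and MCh mice normal and OVA mice asthmatic. The titles also give 4 days for short MCh and 30 days for the long protocol, and the series text speaks of trachea where the sample labels say lung.

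Type I interferons (alpha and beta), type III interferons (lambda) and interferon gamma bind different receptors. Type I and III signals act on genes through STAT2 and IRF9 and the interferon-stimulated response element (ISRE), while interferon gamma acts through the gamma-activated sequence (GAS). Antiviral effectors answer mainly type I and III signals, and the GTPases and the chemokines CXCL9 and CXCL10, which draw T and natural killer cells through the receptor CXCR3, also answer interferon gamma strongly.

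Levels are the authors' FPKM (fragment counts scaled to transcript length and library size). Differences are log2 fold changes ± SE on log2(FPKM + 0.5), a scale that understates folds of genes near 0. A gene was called at an adjusted p under 0.05 over the 15682 genes tested in a contrast, by limma with Benjamini-Hochberg adjustment, and all 35 members passed the filter on low values. Alveolar type 2 cell markers summed to 14800 to 30800 FPKM in the 22 libraries. Genes at 0 made up 34.3% and 33.8% of the table in long MCh libraries a and c, 28.3% in short MCh library 1 and 22.5% to 25.3% in all others. Read totals were not given; the steps between low values imply that a transcript of 1 kilobase at 1 FPKM rests on 15.2 to 25.5 fragments. The labels number biological replicates without tying them to animals, so p-values measure the spread between these libraries. In whole lung, fewer cells of a type and less RNA per cell cannot be told apart.

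After short OVA challenge 3 of the 35 genes, Cxcl10, Cxcl9 and Isg20, were called higher than in PBS and 0 lower, where 24.2% of all genes tested were called, 12.4% higher and 11.7% lower. The median log2 difference of the 35 was 0.01 and that of all genes tested was -0.06, with 18 members above 0. For 10 members every OVA library was above every PBS library, as for 23.2% of all genes, and for 3 every OVA library was below, as for 29.2% of all genes. After long OVA challenge Cxcl10 was the sole member called, where 1.18% of all genes were called, 1.03% higher and 0.153% lower. The member median there was 0.01 and the all-gene median -0.02; 3 members (Cxcl9, Cxcl10 and Zbp1) had every OVA library above PBS, as had 9.95% of all genes, and 1 (Ifit2) every one below, as had 13.2%. All 8 genes of a reference list of the OVA response, such as Il13 (4.03 ± 0.23, adjusted p = 4.14e-10), were higher in short OVA lungs and 3 of 8 in long OVA lungs. That list was chosen with earlier results of these data known, so its counts are no benchmark for the members. No member was called in either MCh comparison with PBS; within a protocol the OVA and MCh comparisons share the PBS libraries. The plot of log2 differences by gene and contrast shows the chemokines above the other members in the OVA contrasts and among them in the MCh contrasts.

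**Figure D1:**
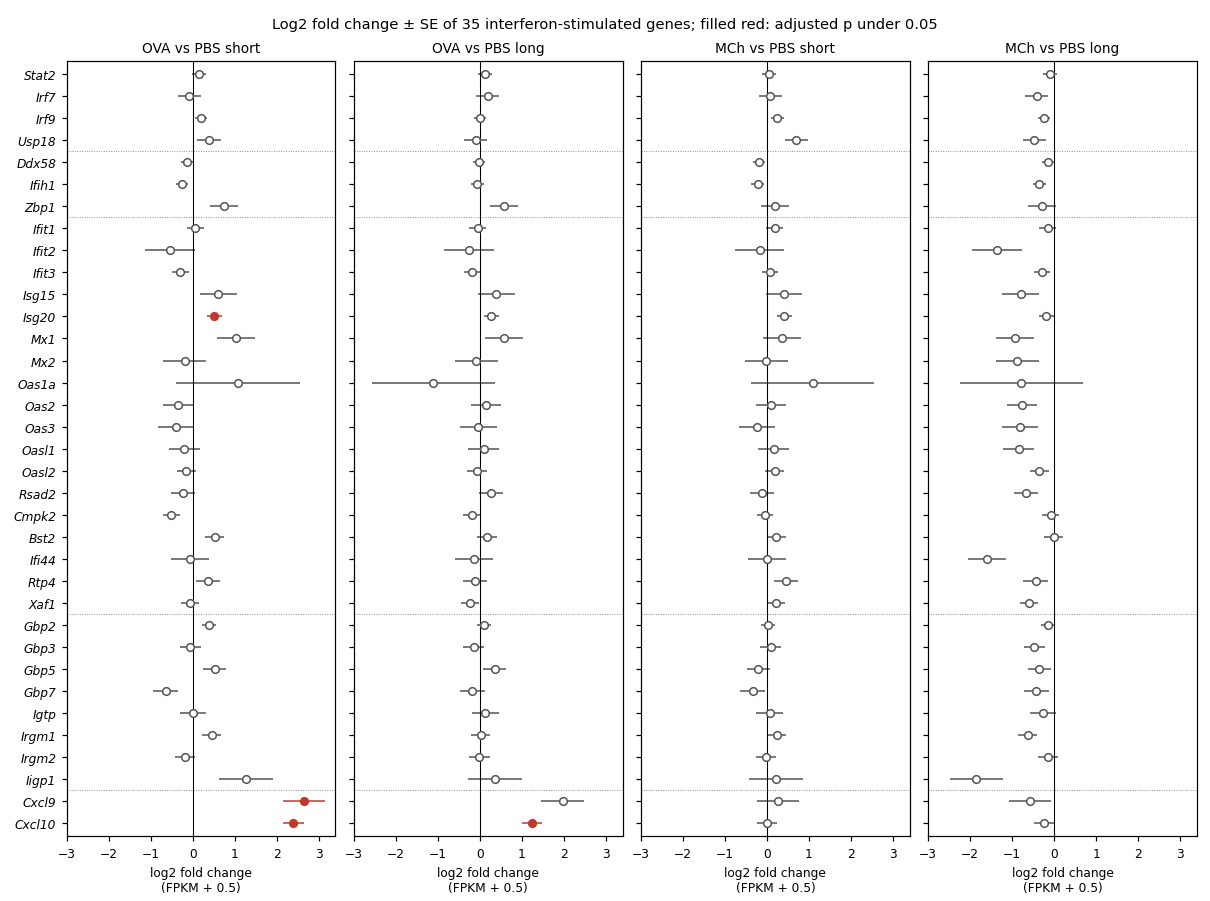
Log2 fold change ± SE (horizontal axis, log2(FPKM + 0.5) scale) of each of the 35 genes, grouped by role, in 4 contrasts against PBS. Filled red points are called at an adjusted p under 0.05: Isg20, Cxcl9 and Cxcl10 in short OVA lungs and Cxcl10 in long OVA lungs.

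The short OVA count depended on which libraries set the common spread. It was 3 with all 22 libraries and 10 without the 3 libraries with most tested genes at 0, where 43% of all genes were called. With array weights it was 11 (51% of all genes), without the 4 libraries of lowest weight 13 (54%) and with the short OVA and short PBS groups alone 15 (50%). In all 4 of these fits Zbp1, Mx1, Gbp2 and Iigp1 were also called higher, and Ifit2, Cmpk2 and Gbp7 lower.

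Cxcl10 and Cxcl9 encode secreted chemokines that guide activated T cells and natural killer cells. Cxcl10 lies at chr5:92346638-92348889 and Cxcl9 at chr5:92321331-92328079 (GRCm38.p6, the assembly called mm10). Cxcl10 had 3.79, 4.84, 2.505 and 4.22 FPKM in short OVA libraries 1 to 4, against 0.407, 0.326 and 0.199 FPKM in short PBS libraries 1 to 3. Each OVA library stood far above each PBS library, whose values rested on 5 to 11 fragments. Cxcl10 rose by 2.40 ± 0.24 (log2 fold change; adjusted p = 9.65e-07), and it was called in 20 of 20 alternative fits. Cxcl9 had 11.4, 12.6, 8.495 and 9.07 FPKM in short OVA libraries 1 to 4, against 1.44, 2.64 and 0.334 FPKM in short PBS libraries 1 to 3. The OVA libraries did not overlap with PBS, where library 2 was high and library 3 low. Cxcl9 rose by 2.65 ± 0.51 (adjusted p = 0.000828), and it too was called in 20 of 20 alternatives.

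In the long protocol Cxcl10 had 0.538, 0.971, 1.72 and 1.52 FPKM in long OVA libraries a to d, against 0.147, 0.251 and 0.154 FPKM in long PBS libraries 1 to 3. The groups were apart, library a being the nearest of the OVA libraries to PBS. Cxcl10 rose by 1.24 ± 0.24 (adjusted p = 0.0101), but the call was lost without long PBS library 1 (adjusted p = 0.066) or library 3 (adjusted p = 0.0719). Cxcl9 had 2.33, 4.16, 3.41 and 6.36 FPKM in long OVA libraries a to d, against 0.832, 0.453 and 0.563 FPKM in long PBS libraries 1 to 3. No library overlapped, yet at 1.97 ± 0.51 Cxcl9 missed the threshold (adjusted p = 0.0648), and it was called in 6 of 19 alternatives. The OVA effect on Cxcl10 differed by -1.15 ± 0.34 on the log2 scale between the long and the short protocol, being smaller in the long, which missed the threshold (adjusted p = 0.104) and passed it in 6 of 26 alternatives, among them the fit without short OVA library 3. For Cxcl9 that difference of effects was -0.67 ± 0.72 (adjusted p = 0.717), with a 95% interval of -2.17 to 0.82. No member was called in this difference by limma, where 1.88% of all genes were called. In that fit 1 of 35 members, Cxcl10, had an unadjusted p under 0.05, as had 2386 of the 15682 genes tested.

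**Figure D2:**
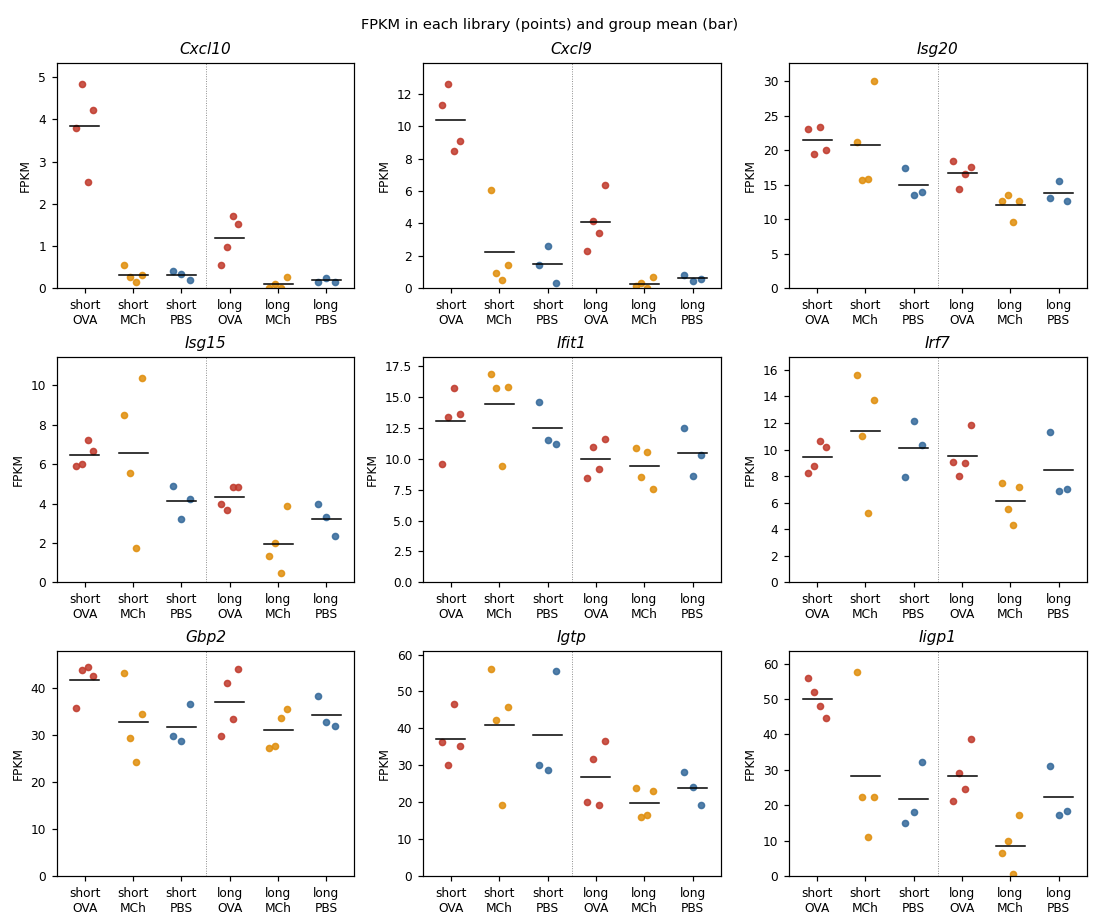
FPKM (vertical axes, from 0) of 9 members in each library (points), with the group mean as a bar, for OVA, MCh and PBS in the short (left) and long protocol (right). Cxcl10 and Cxcl9 lie above PBS in all OVA libraries, whereas Ifit1, Irf7 and Igtp overlap between OVA and PBS in both protocols.

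Markers of several immune cell types were also higher in short OVA lungs. The 8 natural killer cell markers summed to 98.9 to 132 FPKM in short OVA libraries, against 41.3 to 69.8 FPKM in short PBS libraries, and 2 of the 8 (Gzma and Gzmb) were called higher. The 6 monocyte markers summed to 285 to 393 FPKM in short OVA, against 106 to 120 FPKM in short PBS, with 4 of 6 called higher. The 6 conventional dendritic cell markers summed to 107 to 159 FPKM in short OVA, against 61 to 63.7 FPKM in short PBS, with 2 of 6 called higher. For the 8 T cell markers the sums overlapped, at 51.5 to 77.8 FPKM in short OVA, against 23 to 67.3 FPKM in short PBS, with 2 of 8 called higher. In long OVA lungs the monocyte markers summed to 174 to 221 FPKM, against 115 to 130 FPKM in long PBS (3 of 6 called higher). The conventional dendritic cell markers summed to 121 to 160 FPKM, against 70 to 92.9 FPKM (1 of 6 called higher). Natural killer cell markers there summed to 41.1 to 59 FPKM, against 40.1 to 71.5 FPKM (0 of 8 called). For T cell markers the sums were 24.7 to 39 FPKM, against 29.5 to 36 FPKM (0 of 8 called). Of all genes tested, 1.03% were called higher in long OVA. Of the other marker lists, 4 of 5 eosinophil and 3 of 6 alveolar macrophage markers were called higher in short OVA lungs, and 3 of 6 endothelial and 3 of 6 alveolar type 1 cell markers lower, where 12.4% of all genes were called higher and 11.7% lower. Club cell markers had 2 of 4 called lower, and alveolar type 2 cell markers 2 of 6 called higher and 2 lower. Plasmacytoid dendritic cell markers had 1 of 6 called higher and 1 lower, and neutrophil markers 1 of 6 higher. None of 6 B cell, 5 ciliated cell or 6 cardiac muscle markers was called. No natural killer cell, monocyte, dendritic cell or T cell marker was at 0 in an OVA or PBS library. The part of these cells in the chemokine result was not tested.

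Promoter windows from RefSeq (GRCm38.p6; 250 bases before to 50 after each annotated start) were at hand for 28 of the 35 genes. The ISRE core was searched as GAAA, any 2 bases, GAAA, and the GAS core as TTCNNNGAA, on both strands; matches may overlap, and a GAS core overlaps an ISRE core in Bst2. The ISRE core was found in 18 of the 28 (64.3%), against 3.99% of 27025 genes with a window, and the GAS core in 8 of the 28 (28.6%), against 9.55%. All 7 GTPases with a window held an ISRE core and 4 of them a GAS core. Of 14 effectors with a window, 7 held an ISRE core and 4 a GAS core. Isg20 held a GAS core in 1 of its 3 windows and no ISRE core. Of the 2 chemokines 1 held an ISRE core and 0 a GAS core. The 250 bases upstream of 6 genes are shown to set the called chemokines beside members that were not called in OVA against PBS. Capitals mark the motif matches, and each sequence reads 5′ to 3′ on its gene's strand.
Cxcl10, chr5:92348890-92349139, minus strand: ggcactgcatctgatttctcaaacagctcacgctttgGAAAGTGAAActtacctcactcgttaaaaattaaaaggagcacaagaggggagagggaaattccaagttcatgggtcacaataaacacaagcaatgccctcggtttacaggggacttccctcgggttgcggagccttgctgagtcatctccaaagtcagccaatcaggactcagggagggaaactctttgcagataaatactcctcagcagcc
Cxcl9, chr5:92328080-92328329, minus strand: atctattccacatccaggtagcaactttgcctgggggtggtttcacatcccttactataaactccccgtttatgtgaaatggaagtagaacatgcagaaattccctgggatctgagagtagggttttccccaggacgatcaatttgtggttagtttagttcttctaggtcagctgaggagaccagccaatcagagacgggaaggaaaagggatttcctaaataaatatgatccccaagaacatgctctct
Ifit1, chr19:34640639-34640888, plus strand: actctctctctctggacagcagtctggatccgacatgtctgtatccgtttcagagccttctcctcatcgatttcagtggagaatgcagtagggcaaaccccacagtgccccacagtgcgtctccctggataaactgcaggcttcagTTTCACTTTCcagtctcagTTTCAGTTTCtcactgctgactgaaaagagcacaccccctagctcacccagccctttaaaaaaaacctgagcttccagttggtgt
Isg15, chr4:156200819-156201068, minus strand: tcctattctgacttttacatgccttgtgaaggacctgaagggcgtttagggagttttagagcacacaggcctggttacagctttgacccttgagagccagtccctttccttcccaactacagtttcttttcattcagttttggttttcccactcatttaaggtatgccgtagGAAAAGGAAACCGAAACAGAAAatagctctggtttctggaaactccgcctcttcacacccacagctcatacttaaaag
Gbp2, chr3:142620413-142620662, plus strand: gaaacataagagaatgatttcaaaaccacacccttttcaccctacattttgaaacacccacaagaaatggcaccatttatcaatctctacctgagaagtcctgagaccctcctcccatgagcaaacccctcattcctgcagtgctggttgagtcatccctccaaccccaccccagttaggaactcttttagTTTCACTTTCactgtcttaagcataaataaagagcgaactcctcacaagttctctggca
Igtp, chr11:58199306-58199555, plus strand: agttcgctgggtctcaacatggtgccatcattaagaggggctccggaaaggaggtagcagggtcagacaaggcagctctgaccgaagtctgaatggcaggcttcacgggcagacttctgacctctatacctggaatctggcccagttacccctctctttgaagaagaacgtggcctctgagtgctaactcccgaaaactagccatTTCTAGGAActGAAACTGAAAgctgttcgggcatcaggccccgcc
The first base of each match was counted from the start, with -1 as the last base upstream. The ISRE core lay at -213 in Cxcl10, at -104 and -85 in Ifit1, at -59 in Gbp2 and at -34 in Igtp, whose GAS core lay at -45. Isg15 held 3 overlapping ISRE cores, at -78, -72 and -66. In the Cxcl9 window neither set of letters occurred.

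Stat2 and Irf9 encode parts of the complex that binds the ISRE, and neither was called. Stat2 had 27.9, 30.9, 28.9 and 30.6 FPKM in short OVA libraries 1 to 4, against 27.2, 21.6 and 32.2 FPKM in short PBS libraries 1 to 3. It had 28.7, 31.4, 30.5 and 31.99 FPKM in long OVA libraries a to d, against 31.5, 26.3 and 26.7 FPKM in long PBS libraries 1 to 3. The groups overlapped in both protocols, with log2 differences of 0.15 ± 0.17 (short; adjusted p = 0.578) and 0.12 ± 0.17 (long; adjusted p = 1). Irf9 had 37.8, 37.4, 38.8 and 38.8 FPKM in short OVA libraries 1 to 4, against 33.2, 30.1 and 36.7 FPKM in short PBS libraries 1 to 3. Every short OVA library was above PBS, by the small margin of 0.20 ± 0.14 (adjusted p = 0.345). Irf9 had 28.03, 30.4, 29.1 and 30.6 FPKM in long OVA libraries a to d, against 36.01, 26.7 and 26.4 FPKM in long PBS libraries 1 to 3, with overlap and a difference of 0.01 ± 0.14 (adjusted p = 1).

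Irf7 amplifies type I interferon production and is itself an interferon target. It had 8.22, 8.73, 10.7 and 10.2 FPKM in short OVA libraries 1 to 4, against 7.93, 12.1 and 10.3 FPKM in short PBS libraries 1 to 3. With long exposure Irf7 had 9.06, 8.01, 9.004 and 11.9 FPKM in long OVA libraries a to d, against 11.4, 6.896 and 7.06 FPKM in long PBS libraries 1 to 3. OVA and PBS overlapped in both, and the log2 differences were -0.08 ± 0.28 (short; adjusted p = 0.868) and 0.18 ± 0.28 (long; adjusted p = 1). Usp18 removes ISG15 from proteins and dampens the type I receptor. It averaged 5.96 ± 0.617 FPKM in short OVA (SD, n = 4), against 4.53 ± 1.27 FPKM in short PBS (SD, n = 3), with overlap (0.39 ± 0.28, adjusted p = 0.342).

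Of the sensors, Ddx58 (RIG-I) and Ifih1 (MDA5) detect viral RNA in the cytoplasm. Ddx58 averaged 34.2 ± 3.83 FPKM in short OVA, against 37.7 ± 1.52 FPKM in short PBS (SD, n = 4 and 3; -0.15 ± 0.15, adjusted p = 0.512). Ifih1 averaged 16.8 ± 1.35 FPKM in short OVA, against 20.2 ± 1.62 FPKM in short PBS (-0.26 ± 0.15, adjusted p = 0.228), and both genes overlapped between the groups. Zbp1, a nucleic acid sensor that can trigger necroptosis, had all OVA libraries above all PBS libraries in both protocols but was not called. It averaged 3.42 ± 0.654 FPKM in short OVA, against 1.82 ± 0.376 FPKM in short PBS (0.75 ± 0.33, adjusted p = 0.107). It averaged 2.77 ± 0.593 FPKM in long OVA, against 1.68 ± 0.366 FPKM in long PBS (0.58 ± 0.33, adjusted p = 0.865).

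Isg20, an RNA exonuclease gene at chr7:78913396-78920396, was the sole called member among the 18 effectors, whose median log2 difference in short OVA lungs was -0.11. It had 23.1, 19.5, 23.4 and 20.02 FPKM in short OVA libraries 1 to 4, against 17.4, 13.6 and 14.01 FPKM in short PBS libraries 1 to 3. The groups did not overlap, with short PBS library 1 the nearest. Isg20 rose by 0.51 ± 0.18 (adjusted p = 0.048), just within the threshold. The call held in 11 of 20 alternatives. Of the fits that left out 1 library, the call held without short PBS library 1 and was lost in the other 6, where the adjusted p was 0.0584 to 0.158. It was also lost with the replicate block (0.43, adjusted p = 0.126), with no filter on low values (adjusted p = 0.0645) and with each library's trend with transcript length removed (0.18, adjusted p = 0.348). Across genes, the deviation from a gene's mean over all libraries had a Spearman's rho with transcript length of -0.477 to -0.396 in short OVA libraries, against -0.0293 to 0.275 in short PBS libraries, and the transcript length used for Isg20 was 964 bases. Of the other members with all short OVA libraries above PBS, Isg15 had 756 bases, Bst2 792, Cxcl10 1094, Zbp1 1379 and Rtp4 1573. Irgm1 had 2170 bases, Irf9 2459, Cxcl9 2889 and Iigp1 3024, and these too were above. The members with all short OVA libraries below PBS were Cmpk2 (3200 bases), Ifit2 (3818 bases) and Gbp7 (5614 bases). The part of length in the differences of these genes was not tested. Isg20 had 18.4, 14.4, 16.5 and 17.6 FPKM in long OVA libraries a to d, against 13.1, 15.6 and 12.6 FPKM in long PBS libraries 1 to 3, with overlap (0.27 ± 0.18, adjusted p = 1).

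Isg15 is a ubiquitin-like protein that is joined to others in the antiviral state. It had 5.91, 6.03, 7.25 and 6.69 FPKM in short OVA libraries 1 to 4, against 4.895, 3.204 and 4.23 FPKM in short PBS libraries 1 to 3. All short OVA libraries were above PBS, but the gene was not called (0.61 ± 0.44, adjusted p = 0.342). Isg15 had 3.99, 3.69, 4.84 and 4.83 FPKM in long OVA libraries a to d, against 3.99, 3.33 and 2.36 FPKM in long PBS libraries 1 to 3, and the groups overlapped (0.39 ± 0.44, adjusted p = 1). Ifit1, which binds viral RNA, had 9.604, 13.4, 15.8 and 13.6 FPKM in short OVA libraries 1 to 4, against 14.6, 11.6 and 11.2 FPKM in short PBS libraries 1 to 3. After long exposure Ifit1 had 8.42, 10.9, 9.14 and 11.6 FPKM in long OVA libraries a to d, against 12.5, 8.59 and 10.3 FPKM in long PBS libraries 1 to 3. Neither protocol separated the groups, with differences of 0.06 ± 0.20 (short; adjusted p = 0.874) and -0.06 ± 0.20 (long; adjusted p = 1).

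Mx1 encodes a dynamin-like antiviral GTPase, and most inbred laboratory mouse strains, BALB/c included, carry a defective copy. It was among the lowest of the members, with 1.84, 0.722, 2.38 and 2 FPKM in short OVA libraries 1 to 4, against 0.415, 0.847 and 0.4302 FPKM in short PBS libraries 1 to 3. In 3 of 4 short OVA libraries it was above all PBS libraries, and library 2 overlapped with them (1.03 ± 0.45, adjusted p = 0.107). Mx1 had 2.01, 0.719, 2.005 and 1.92 FPKM in long OVA libraries a to d, against 0.847, 0.977 and 0.855 FPKM in long PBS libraries 1 to 3, again with 1 low OVA library (0.58 ± 0.45, adjusted p = 1). Oas1a, an oligoadenylate synthetase that activates RNase L, was listed at or near 0 in some libraries of every group. It had 8.65, 0, 16.7 and 10.03 FPKM in short OVA libraries 1 to 4, against 5.93, 4.64 and 0 FPKM in short PBS libraries 1 to 3. Oas1a had 0, 4.19, 0 and 6.17 FPKM in long OVA libraries a to d, against 11.7, 6.898 and 0.0243 FPKM in long PBS libraries 1 to 3. Oas1a was under 0.05 FPKM in 7 of 22 libraries and at 1.56 to 18 FPKM in the other 15, and its near copy Oas1g was under 0.05 FPKM in the same 7. Reads may be divided between this pair, and a value of 0 may also be a failed estimate, so the values of both are uncertain. The cause of the joint values near 0 was not tested.

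None of the other effectors was called, and more of their differences in short OVA lungs were negative than positive. Bst2, which tethers virions to the cell, averaged 110 ± 6.99 FPKM in short OVA, against 76.7 ± 6.61 FPKM in short PBS (SD, n = 4 and 3), with no overlap (0.52 ± 0.23, adjusted p = 0.113). Rtp4 also had every short OVA library above PBS (0.36 ± 0.29, adjusted p = 0.403). In the other direction Cmpk2, a mitochondrial nucleotide kinase, averaged 16.1 ± 2.12 FPKM in short OVA, against 23.2 ± 2.98 FPKM in short PBS (-0.51 ± 0.20, adjusted p = 0.0691). Ifit2 averaged 17.3 ± 2.54 FPKM in short OVA, against 25.2 ± 0.393 FPKM in short PBS (-0.54 ± 0.59, adjusted p = 0.554). The common spread of Ifit2 takes in long MCh library a, at 1.11 FPKM, against 18.15 to 26.62 FPKM in long MCh libraries b to d. With array weights in limma the Ifit2 difference was -0.52 ± 0.185 (adjusted p = 0.024). For Cmpk2 and Ifit2 every short OVA library was below PBS, as was Ifit2 in every long OVA library. Ifit3, Mx2, Oas2, Oas3, Oasl1, Oasl2, Rsad2 (viperin), Ifi44 and Xaf1 had log2 differences between -0.40 (Oas3) and -0.07 (Xaf1) in short OVA, all with overlapping groups. Over the 6 PBS libraries Ifit3 had the highest mean level of the 35, 91.4 FPKM, followed by Bst2 with 69.9 FPKM, and Cxcl10 the lowest, 0.247 FPKM. Reads of Ifit3 and its near copy Ifit3b may be shared between them.

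The guanylate-binding proteins and the immunity-related GTPases attack the vacuoles of intracellular microbes. None of the 8 was called in either OVA comparison with PBS, and their median log2 difference was 0.20 in short and 0.06 in long OVA lungs. Gbp2 had 35.7, 43.9, 44.5 and 42.6 FPKM in short OVA libraries 1 to 4, against 29.9, 28.7 and 36.6 FPKM in short PBS libraries 1 to 3. In the long protocol it had 29.8, 41.1, 33.4 and 44.04 FPKM in long OVA libraries a to d, against 38.2, 32.8 and 31.8 FPKM in long PBS libraries 1 to 3. The groups overlapped narrowly in the short protocol, through OVA library 1 and PBS library 3 (0.39 ± 0.17, adjusted p = 0.103), and widely in the long (0.10 ± 0.17, adjusted p = 1). Igtp had 36.2, 30.2, 46.6 and 35.2 FPKM in short OVA libraries 1 to 4, against 30.2, 28.8 and 55.6 FPKM in short PBS libraries 1 to 3. Igtp had 20.2, 31.7, 19.2 and 36.7 FPKM in long OVA libraries a to d, against 28.2, 24.1 and 19.4 FPKM in long PBS libraries 1 to 3. Its highest value in the short OVA and PBS groups was that of PBS library 3, and neither difference was called (short 0.01 ± 0.31, adjusted p = 0.993; long 0.13 ± 0.31, adjusted p = 1).

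Iigp1, on chromosome 18, had 56.03, 51.8, 47.95 and 44.6 FPKM in short OVA libraries 1 to 4, against 15.01, 18.04 and 32.2 FPKM in short PBS libraries 1 to 3. All short OVA libraries were above PBS, and the gene was not called (1.26 ± 0.64, adjusted p = 0.167). Iigp1 had 21.2, 29.04, 24.5 and 38.8 FPKM in long OVA libraries a to d, against 31.2, 17.4 and 18.3 FPKM in long PBS libraries 1 to 3, and the groups overlapped (0.36 ± 0.64, adjusted p = 1). Irgm1 averaged 18.6 ± 0.797 FPKM in short OVA, against 13.6 ± 2.78 FPKM in short PBS, also without overlap (0.45 ± 0.23, adjusted p = 0.156). Gbp5 averaged 7.78 ± 0.724 FPKM in short OVA, against 5.45 ± 1.86 FPKM in short PBS (0.52 ± 0.27, adjusted p = 0.18). Gbp7 stood the other way, at 21.6 ± 2.23 FPKM in short OVA, against 35.4 ± 12.9 FPKM in short PBS, all OVA libraries being below PBS (-0.65 ± 0.29, adjusted p = 0.117). Gbp3 and Irgm2 differed by -0.06 ± 0.25 and -0.19 ± 0.24 in short OVA lungs, with overlap. Gbp genes share sequence, so reads may be divided between them.

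Methacholine gave no called member in the short protocol by limma, where 0.00638% of all genes were called. In that fit 2 of 35 members (Usp18 and Isg20, both higher) had an unadjusted p under 0.05. So had 1175 of the 15682 genes tested, in either direction. The member median was 0.09 on the log2 scale, with 24 members above 0, and that of all genes -0.05. Its sign rested on short MCh library 1: without the 3 sparsest libraries, of which that is the sole one in this contrast, the median was -0.122, with 13 members above 0, against -0.0593 for all genes. Without the 4 libraries of lowest array weight it was -0.173, with 5 above 0, and without short MCh library 3 alone it was 0.371, with 30 above 0. Short MCh libraries differed widely among themselves. The rho with transcript length given above for short OVA and short PBS was -0.644 in short MCh library 4. It was -0.000188, 0.126 and 0.244 in short MCh libraries 1 to 3. Isg20 (964 bases) was highest in library 4 and Usp18 (1771 bases) in library 1. The part of length in the short MCh differences was not tested. Isg15 had 8.52, 5.55, 1.73 and 10.4 FPKM in short MCh libraries 1 to 4, and Irf7 15.6, 11.04, 5.22 and 13.7 FPKM. Ifit1 had 16.9, 15.7, 9.45 and 15.8 FPKM and Igtp 55.99, 42.2, 19.2 and 45.9 FPKM in the same libraries. Library 3 was the lowest for each of these genes. Stat2 had 37.8, 33.9, 22.8 and 20.1 FPKM and Irf9 46.2, 40.5, 28.3 and 46.2 FPKM. Gbp2 had 43.1, 29.3, 24.2 and 34.5 FPKM and Iigp1 57.6, 22.4, 11.1 and 22.3 FPKM. Library 1 was highest for Stat2, Gbp2 and Iigp1, and libraries 1 and 4 for Irf9.

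Mx1 had 3.902, 0.684, 0.266 and 0.289 FPKM in short MCh libraries 1 to 4, Isg20 21.3, 15.7, 15.8 and 30.1 FPKM and Oas1a 12.7, 6.54, 0 and 18.04 FPKM. Cxcl9 had 6.09, 0.936, 0.507 and 1.41 FPKM and Cxcl10 0.548, 0.259, 0.151 and 0.322 FPKM. Library 1 was thus highest for both chemokines and Mx1. Short MCh differed from short PBS by 0.00 ± 0.24 for Cxcl10 (adjusted p = 1) and 0.27 ± 0.51 for Cxcl9 (adjusted p = 0.926). T cell and B cell markers summed to 86 and 126 FPKM in short MCh library 1, and to at most 38.4 and 32.4 FPKM in the other short MCh libraries. In short PBS library 2, the highest of its group for Cxcl9, they summed to 67.3 and 135 FPKM. Cardiac muscle markers were also highest of their groups in these libraries, at 527 FPKM in short MCh library 1 and 376 FPKM in short PBS library 2. The part of any of these cells in the result was not tested.

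**Figure D3:**
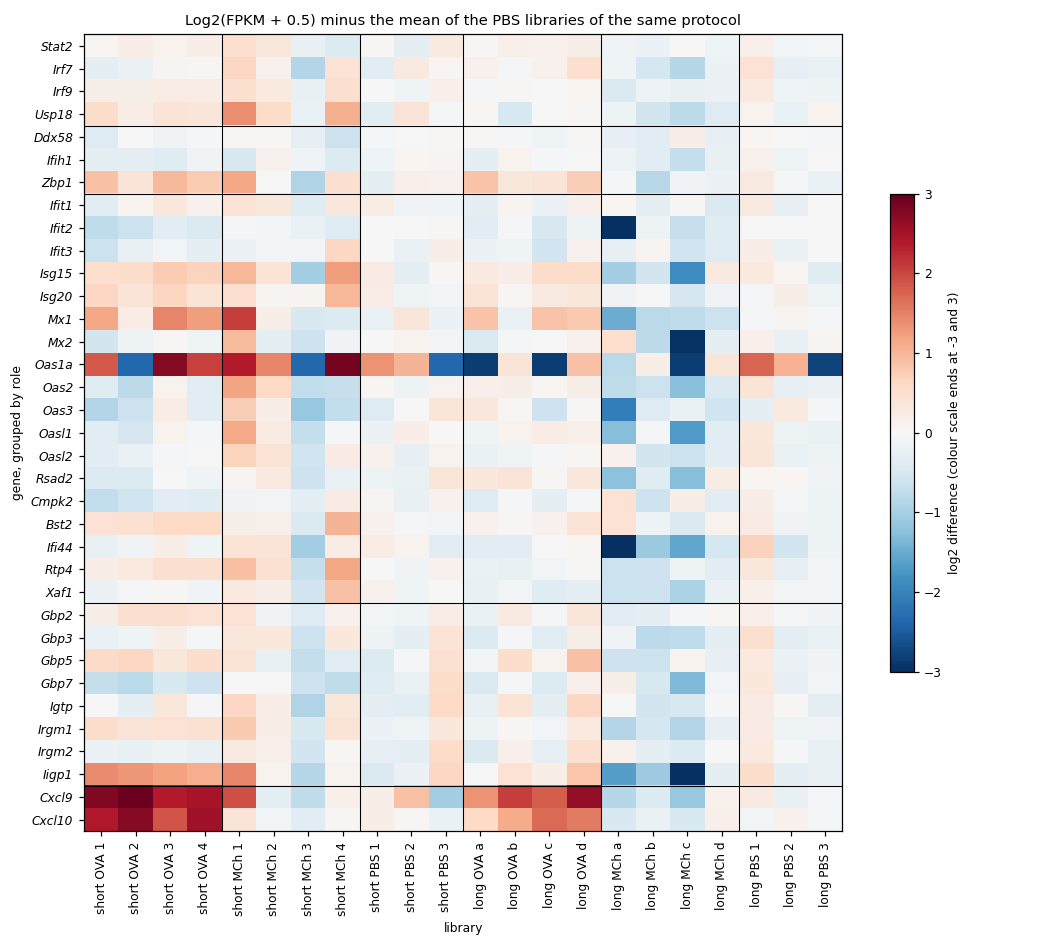
Log2(FPKM + 0.5) of each gene (rows, grouped by role) in each of the 22 libraries (columns) minus the mean of the PBS libraries of the same protocol, where red is higher and blue lower and colours end at -3 and 3. Cxcl9 and Cxcl10 are red in all 8 OVA libraries, Oas1a takes both ends of the scale within groups, and long MCh columns are mostly blue.

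After long MCh challenge all 35 log2 differences from PBS were negative, with a median of -0.42, against -0.14 for all genes tested. None was called by limma, where 0.0638% of all genes were called. In that fit 9 of 35 members had an unadjusted p under 0.05, all lower. So had 2551 of the 15682 genes tested, in either direction. Every MCh library was below every PBS library for 7 members (Ifih1, Ifit2, Mx1, Oas2, Xaf1, Irgm1 and Iigp1), as for 10.5% of all genes. Iigp1 had 6.55, 9.85, 0.565 and 17.3 FPKM in long MCh libraries a to d, all below the long PBS values (-1.85 ± 0.64, adjusted p = 0.222). Ifi44 averaged 3.35 ± 2.32 FPKM in long MCh, against 9.76 ± 4.68 FPKM in long PBS (SD, n = 4 and 3; -1.59 ± 0.45, adjusted p = 0.215). Isg15 had 1.32, 1.99, 0.492 and 3.89 FPKM in long MCh libraries a to d (-0.80 ± 0.44, adjusted p = 0.36).

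Among the regulators, long MCh libraries a to d had 7.51, 5.55, 4.35 and 7.195 FPKM of Irf7, 25.9, 24.6, 27.98 and 25.8 FPKM of Stat2 and 21.5, 26.5, 25.2 and 26.2 FPKM of Irf9. Ifit1 had 10.9, 8.55, 10.5 and 7.56 FPKM, Isg20 12.7, 13.5, 9.57 and 12.6 FPKM and Mx1 0, 0.295, 0.322 and 0.384 FPKM. Of these 6 genes Mx1 alone was below PBS in all 4 libraries (-0.92 ± 0.45, adjusted p = 0.314). Gbp2 had 27.2, 27.6, 33.5 and 35.5 FPKM, Igtp 23.8, 15.9, 16.7 and 23.03 FPKM and Oas1a 1.56, 3.61, 0 and 4.12 FPKM. Cxcl9 had 0.109, 0.327, 0 and 0.717 FPKM and Cxcl10 0, 0.0977, 0 and 0.258 FPKM. Both chemokines were listed at 0 in library c, as was Cxcl10 in library a, and their differences from PBS were -0.57 ± 0.51 (Cxcl9; adjusted p = 0.588) and -0.23 ± 0.24 (Cxcl10; adjusted p = 0.651).

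In long MCh against PBS the member and all-gene medians both moved with the sparse libraries and with scaling. The member median stayed below the all-gene median in the fits given here. With array weights, which were low for long MCh libraries a and c, the member median was -0.354, against -0.0487 for all genes. In that fit 0 members were above 0. Without the 3 sparsest libraries (long MCh libraries a and c and short MCh library 1), the median was -0.295 for members, against -0.0375 for all genes, and 1 member was above 0. Under quantile normalization, which moved the all-gene median by 0.16, the member median was -0.242, against 0.0164, with 3 members above 0. With the length trend removed it was -0.279, against 0.00196, with 7 above 0. Without long MCh library d, 3 members (Ifi44, Iigp1 and Rsad2) were called lower. That fit kept the sparse libraries a and c. The share of all genes called in it is not given here, so the count is not read as particular to the members. B cell markers summed to 12.8 to 27.7 FPKM in long MCh, against 31.8 to 63.2 FPKM in long PBS, with no overlap, a median difference of -1.22 and 0 of 6 called. Monocyte markers summed to 97.7 to 116 FPKM in long MCh, against 115 to 130 FPKM in long PBS, with all 6 differences negative, a median of -0.36 and 0 called. Natural killer cell markers summed to 21.8 to 44.3 FPKM in long MCh, against 40.1 to 71.5 FPKM in long PBS, with 0 of 8 called and Eomes at 0 in library a. Their part in the result was not tested. No member was called for a difference of the MCh effect between the long and short protocols by limma (0% of all genes called). In that fit 8 of 35 members had an unadjusted p under 0.05, all lower in the long protocol. So had 989 of the 15682 genes tested, in either direction.

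**Figure D4:**
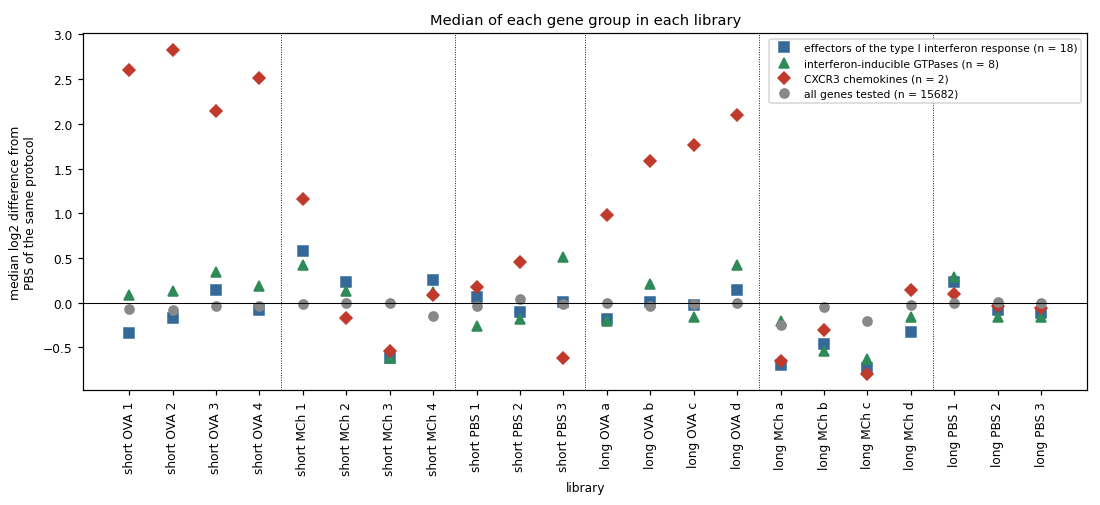
Median log2 difference from the PBS mean of the same protocol (vertical axis) in each library, for the 18 effectors, the 8 GTPases, the 2 chemokines and all 15682 genes tested. The chemokines lie between 0.98 and 2.83 in the OVA libraries, while the effectors stay between -0.34 and 0.15 there. The effectors reach 0.58 and -0.61 in short MCh libraries 1 and 3. Their lowest medians are -0.702 and -0.727, in long MCh libraries a and c.

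Many members moved together from library to library within groups, as the plot of medians by library shows. The median deviation of the 35 from the PBS mean was 0.495 in short MCh library 1 and -0.604 in short MCh library 3, where the medians of all genes were -0.0124 and -0.00497. Long PBS library 1 stood at 0.255, and the other long PBS libraries at -0.12 and -0.114. Long MCh libraries a to d stood at -0.322, -0.481, -0.695 and -0.236, where the medians of all genes were -0.253, -0.048, -0.206 and -0.0271. In short PBS library 3 the GTPases stood at 0.51 and the chemokines at -0.623, so that roles did not always move the same way. The median SD between libraries of a group on the log2 scale was 0.167 for members in short OVA, 0.55 in short MCh and 0.246 in short PBS, against 0.143, 0.323 and 0.138 for all genes in those groups. In the long protocol it was 0.205 in OVA, 0.352 in MCh and 0.247 in PBS, against 0.131, 0.367 and 0.103 for all genes.

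Set against methacholine, OVA again showed the chemokines. In the short protocol 2 members were called, both higher, where 15.2% of all genes were called and 9.37% higher. They were Cxcl10 (2.40 ± 0.23, adjusted p = 3.06e-07) and Cxcl9 (2.38 ± 0.47, adjusted p = 0.00126). In the long protocol 6 were called, all higher, where 6.06% of all genes were called and 4.75% higher: Cxcl10 (1.48 ± 0.23, adjusted p = 0.000385), Cxcl9 (2.54 ± 0.47, adjusted p = 0.00219), Iigp1 (2.21 ± 0.59, adjusted p = 0.0323), Mx1 (2.83-fold, adjusted p = 0.0387), Ifi44 (1.45 ± 0.42, adjusted p = 0.0446) and Rsad2 (0.93 ± 0.27, adjusted p = 0.0449). The member median was 0.40 and the all-gene median 0.14, and for 12 members every OVA library was above every MCh library, as for 9.60% of all genes. Cxcl9 and Cxcl10 were called in all 20 alternative fits of the long contrast. Iigp1, Mx1, Ifi44 and Rsad2 were called in 10, 12, 7 and 7 of the 20. Leaving out long MCh library a or c, or long OVA library a, c or d, ended the calls of all 4 of these genes, and leaving out long OVA library b ended all but that of Mx1. In the short contrast the count was 6 without short MCh library 1, with Gbp2, Gbp5, Mx1 and Zbp1 added, and 4 without short MCh library 3, with Oasl2 and Xaf1 added. The shares of all genes called in these fits are not given here, so these counts are not read as particular to the members. The OVA against MCh comparisons share the OVA libraries with those against PBS. Between the PBS lungs of the long and short protocols no member was called by limma, where 0.166% of all genes were called. In that fit 0 of 35 members had an unadjusted p under 0.05, against 854 of the 15682 genes tested.

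Of the 20 interferon ligand genes in the table, Ifng alone passed the filter. Of the other 19, 16 (Ifna1, Ifna2, Ifna4, Ifna5, Ifna6, Ifna7, Ifna9, Ifna11, Ifna12, Ifna13, Ifna14, Ifna15, Ifna16, Ifne, Ifnl2 and Ifnl3) were listed at 0 in all 22 libraries. Ifnab, Ifnb1 and Ifnk were above 0 in 1, 2 and 3 libraries, at up to 0.0201, 0.0838 and 0.266 FPKM. A value of 0 in such a table may also be a failed estimate. Ifng, the interferon made by T and natural killer cells, had 1.44, 1.27, 0.921 and 1.63 FPKM in short OVA libraries 1 to 4, against 0.0231, 0.182 and 0.158 FPKM in short PBS libraries 1 to 3. All short OVA libraries were higher, resting on 24 to 40 fragments each, against 0.71 to 4.8 in short PBS. Ifng rose by 1.54 ± 0.21 (adjusted p = 2.73e-05). In the long protocol it had 0.1197, 0.409, 0.298 and 0.2195 FPKM in long OVA libraries a to d, against 0.107, 0.0756 and 0.106 FPKM in long PBS libraries 1 to 3, and was not called (0.34 ± 0.21, adjusted p = 0.919). The OVA effect on Ifng was smaller in the long than in the short protocol by limma (-1.20 ± 0.29, adjusted p = 0.0381). Ifng had 0, 0.104, 0.232 and 0.308 FPKM in short MCh libraries 1 to 4 and 0, 0, 0.4103 and 0.118 FPKM in long MCh libraries a to d.

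Of the 6 receptor chains, 2 rose and 1 fell in short OVA lungs, where 12.4% of all genes were called higher and 11.7% lower. Ifngr2, the signalling chain of the interferon gamma receptor, averaged 219 ± 30.3 FPKM in short OVA, against 85.9 ± 4.9 FPKM in short PBS (1.34 ± 0.17, adjusted p = 1.9e-05). Ifnar2, a chain of the type I receptor, averaged 141 ± 8.1 FPKM in short OVA, against 100 ± 4.42 FPKM in short PBS (0.49 ± 0.11, adjusted p = 0.00245). Ifnlr1, of the type III receptor, fell to 8.2 ± 1.35 FPKM in short OVA, against 13.3 ± 0.998 FPKM in short PBS (-0.68 ± 0.16, adjusted p = 0.00466). Ifngr1, Ifnar1 and Il10rb were not called, at -0.23 ± 0.10, 0.00 ± 0.08 and 0.19 ± 0.13. No receptor was called in long OVA, where Ifngr2 averaged 118 ± 11.5 FPKM, against 88.9 ± 4.46 FPKM in long PBS (0.40 ± 0.17, adjusted p = 0.541), or in either MCh comparison with PBS.

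Beside the counts of the next 3 lists stand the shares of all genes called in short OVA, 12.4% higher and 11.7% lower. Of 13 kinases and transcription factors of the pathway, 5 rose and 0 fell in short OVA. Among them were Irf4 (2.53 ± 0.43, adjusted p = 0.00029), Jak2, a kinase of the interferon gamma receptor (0.66 ± 0.12, adjusted p = 0.000602), Irf1, an interferon gamma target and activator (0.56 ± 0.14, adjusted p = 0.00563), and Irf5 (1.005 ± 0.27, adjusted p = 0.00968). Of 13 genes of nucleic acid sensing, 3 rose and 1 fell. Tmem173, the adaptor STING (2.29 ± 0.21, adjusted p = 2.09e-07), Myd88 (0.94 ± 0.21, adjusted p = 0.00347) and Cgas (0.60 ± 0.19, adjusted p = 0.0252) rose, while Mavs, the adaptor of the RNA sensors, fell (-0.28 ± 0.09, adjusted p = 0.0324). Of 9 feedback inhibitors, a list that holds the members Isg15 and Usp18, 3 rose: Socs1 (3.15 ± 0.37, adjusted p = 5e-06), Socs3 (2.29 ± 0.22, adjusted p = 5.19e-07) and the phosphatase gene Ptpn2 (0.93 ± 0.16, adjusted p = 0.000332). Socs1, an inhibitor of the JAK kinases, averaged 14.1 ± 3.85 FPKM in short OVA, against 1.15 ± 0.485 FPKM in short PBS (SD, n = 4 and 3).

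**Figure D5:**
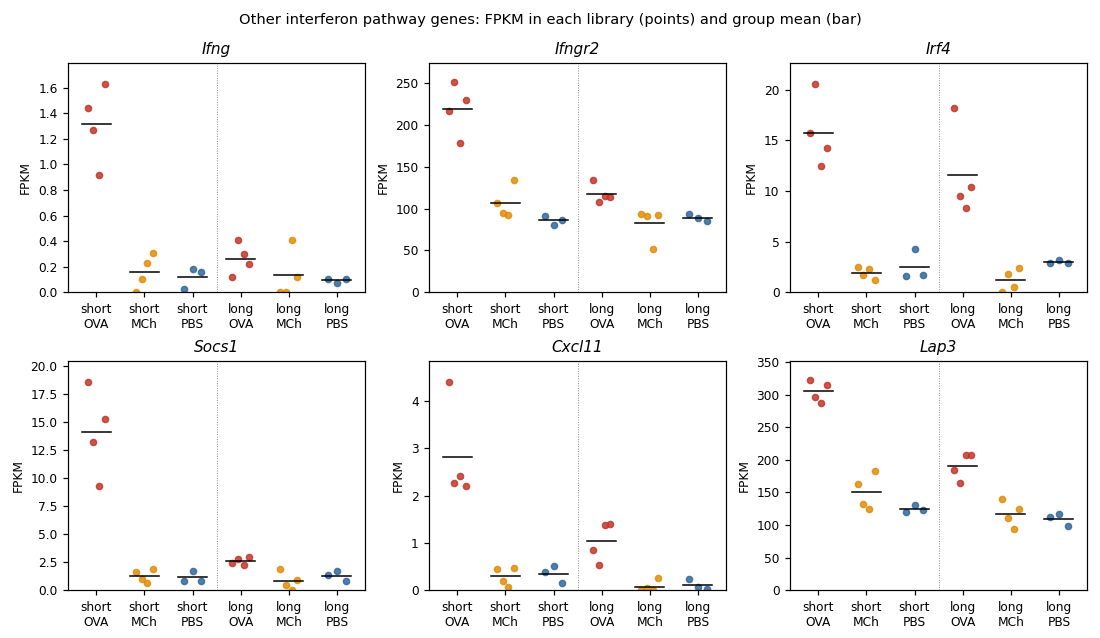
FPKM (vertical axes, from 0) of 6 other genes of the interferon pathway in each library (points), with the group mean as a bar, for OVA, MCh and PBS in the short (left) and long protocol (right). Ifng lies between 0.921 and 1.63 FPKM in short OVA and reaches at most 0.4103 FPKM elsewhere, and Ifngr2, Irf4, Socs1, Cxcl11 and Lap3 are higher in all short OVA libraries than in short PBS.

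Of 53 other type I targets tested, 3 rose and 3 fell in short OVA, with a median log2 difference of 0.00. Of all genes tested, 12.4% were called higher and 11.7% lower there. Slfn2 rose (1.51 ± 0.22, adjusted p = 7.33e-05), while Parp12 (-0.42 ± 0.11, adjusted p = 0.00711), Ifit3b (-0.63 ± 0.19, adjusted p = 0.0201) and Helz2 (-0.76 ± 0.25, adjusted p = 0.0316) fell. Of 31 other interferon gamma GTPases, antigen-processing genes and chemokines, 11 rose and 0 fell, with a median of 0.45. They include Lap3, a leucine aminopeptidase (1.29 ± 0.14, adjusted p = 1.45e-06), Ifi30, a thiol reductase of antigen processing (1.37 ± 0.16, adjusted p = 4.44e-06), Cxcl11, the other CXCR3 chemokine (1.94 ± 0.26, adjusted p = 2.53e-05), and Psme2, a proteasome activator (0.97 ± 0.17, adjusted p = 0.000404). The difference between these lists was not tested. In long OVA, 0 of the other type I targets and 2 of the interferon gamma list, Cxcl11 (1.30 ± 0.26, adjusted p = 0.0107) and Lap3 (0.79 ± 0.14, adjusted p = 0.00312), were called higher, as were Tmem173 (1.15 ± 0.21, adjusted p = 0.00488) and Socs3 (0.98 ± 0.22, adjusted p = 0.0306). Of all genes tested, 1.03% were called higher in long OVA. The OVA effect was smaller in the long than in the short protocol for Socs1 (-2.35 ± 0.52, adjusted p = 0.0213), Socs3 (-1.31 ± 0.31, adjusted p = 0.0336) and Ifi30 (-1.04 ± 0.23, adjusted p = 0.0183). No gene of these lists was called in MCh against PBS.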

How the data were processed

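RNA-seq of 22 lung libraries in 6 groups was analysed (total RNA, TruSeq Stranded kits, per the labels' protocols). The deposited values are FPKM per gene, made by the authors. Trim Galore, STAR, DESeq2 and the build mm10 are named per the submitters' processing notes; the sources used here give no versions or roles and do not say whether counting used strand, and no read counts were used. FPKM keep no read totals, so a gene's precision was judged from the spread between libraries. Of 22 columns, 14 carry a replicate number and 8 (long OVA and long MCh) name only a group; these have letters here.

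Genes reaching an FPKM of 0.1 in 3 or more libraries were kept (15682 of 20938). Values were tested as log2(FPKM + 0.5) with limma 3.58.1 in R 4.3.3 (6 groups, 9 contrasts, trended variance, two-sided, Benjamini-Hochberg adjustment over all genes tested). The tests were checked on simulated data. Tables and figures used Python 3.11.15, pandas 2.3.3, numpy 2.4.6 and matplotlib 3.10.9. Transcript lengths came from GENCODE transcripts of GRCm38 and promoters from RefSeq.

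The 35 members and all lists were chosen with earlier results of these data known. Values in every library are given for members called against PBS and for a set of key members, with means or ranges for the others. Of other genes, all interferon ligands and receptors and up to 4 called genes with the smallest p per list are named; the genes of the pathway plot were chosen after their values were seen. 1 gene of the pathway lists is not reported here. Alternatives changed the pseudocount, filter, scaling, weights, libraries, replicate block, gene values and length trend.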

Additional observations from a re-analysis of the deposited data

Results flagged for a closer look

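In 52 sets of libraries (13 members with values in every library, in the groups of 4 libraries), 2 had 1 library far from the others, where chance flags about 1 in 20. Ifit1 had 9.45 FPKM in short MCh library 3, whereas the other short MCh libraries had 15.7 to 16.9 FPKM. Mx1 had 0.719 FPKM in long OVA library b, whereas the other long OVA libraries had 1.91 to 2.01 FPKM.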

How the results depend on the processing

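Cxcl10 and Cxcl9 in short OVA against PBS, and both in OVA against MCh in either protocol, kept their direction and call in all alternatives run. The differences of the members called against PBS or MCh (Isg20, Iigp1, Mx1, Ifi44 and Rsad2 among them) kept their sign in the contrasts where they were called. Some small differences that were not called turned: short OVA against PBS Ddx58 was 0.03 with the length trend removed and Igtp -0.05 with array weights, and short MCh against PBS Cxcl9 -0.13 with array weights. The member median in short OVA against PBS was -0.0254 with array weights and -0.0295 with the replicate block. The count of members called in short OVA against PBS was 3, and 11 with array weights, 15 with the groups of the contrast alone, 10 when the 3 sparsest libraries were dropped and 13 when the 4 of lowest weight were, an alternative chosen after seeing the data. In long OVA against PBS it was 1, and 3 with array weights (13.1% of all genes called) and 2 under quantile normalization (1.43%), with the groups alone (6.91%), without the sparsest (3.31%) or low-weight libraries (7.72%) and with the length trend removed (1.59%); leaving out 1 library gave 0 to 1. In long MCh against PBS, leaving out 1 library gave 0 to 3. In short OVA against MCh the count was 2, and 14 with array weights (57.3% of all genes called), 8 without the sparsest (25.2%) and 12 without the low-weight libraries (49.3%), and 2 to 6 with 1 library left out. In long OVA against MCh it was 6, and 2 with no filter (3.78% of all genes called), 3 under quantile normalization (5.73%), with the groups alone (1.91%) or without the sparsest libraries (3.12%), and 2 to 9 with 1 library left out. For the difference of OVA effects it was 0, and 1 with a pseudocount of 1 (2.27% of all genes called), array weights (31.2%), the groups alone (29.1%) or without the sparsest (6.57%) or low-weight libraries (30.7%), and 0 to 1 with 1 library left out. The causes of these changes in count were not tested. Shares of all genes called are not given for the fits with 1 library left out.

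Replicate numbers did not pair the libraries: 3 of 19 same-numbered pairs had r over 0.1, with r between -0.27 and 0.356, against -0.327 to 0.405 in other pairs. With a replicate block, 4 members were called in short OVA against PBS (Cxcl10 and Cxcl9 higher, Cmpk2 and Ifit2 lower; 23.1% of all genes) and 3 in short OVA against MCh (18.7%), where the same libraries without the block gave 5 (30.4%) and 5 (19.4%). Isg20 was not called with the block (0.43, adjusted p = 0.126). The blocked count was 0 in short MCh against PBS and in long against short PBS. Long OVA and long MCh columns carry no number and had no block. Genes near 0, such as Cxcl10 in PBS and the ligands, are limited by depth.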
